A study of Mus musculus with 4 samples.

Results

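The genes described here encode proteins that carry a cell through mitosis: the kinases and cyclins of mitotic entry, the spindle and kinetochore machinery, the spindle checkpoint, the ubiquitin ligase parts that end mitosis, and the proteins of cell division. Their symbols formed a list of 35 genes, and each gene was represented by its brightest probe set among those that the platform annotation assigns to that symbol alone. A probe set was named for 33 of the 35 in this way, of 12393 genes on the array. Ccnb1 and Cdca8 are named only, and no value is given for them. In resting lymphocytes these genes are transcribed at a low level. Their RNA accumulates late in the cell cycle, when the DREAM complex of repressors has been exchanged for activators that bind the same promoters, and it is a common measure of how much a T cell population is dividing.

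RNA had been taken from T cells of the spleens of C57Bl/6 mice, for which the labels name no treatment. The cells were stained for CD44, CD4 and CD8 and separated by flow cytometry, and the stated aim was to compare naive cells of both genotypes. The 4 groups were CD4 T cells labelled Gfi1 knockout, CD8 T cells labelled Gfi1 knockout, CD4 T cells labelled wildtype and CD8 T cells labelled wildtype, and the labels describe every group as CD44 low. Gfi1 is a DNA-binding protein that silences transcription in lymphoid and myeloid cells; the labels give neither the knockout allele nor the age of the mice. Each group had 1 Affymetrix MOE430A_2.0 array, for which RNA of 2 mice had been pooled, which leaves no measure of variation among animals, and no difference below has a test.

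Cd44 went against the CD44 low label on the arrays labelled wildtype, and Gfi1 did not bear out the knockout label. Both touch every comparison of genotypes. Cd44 signal was 8136 in CD4 and 5740 in CD8 cells on the arrays labelled wildtype, and 196 and 252 on those labelled knockout. The sample titles end in N for the arrays labelled knockout and in M for those labelled wildtype, letters that the labels do not explain. Gfi1 itself was not lower on the arrays labelled knockout: its signal was 2891 against 2272 in CD4 and 2447 against 1158 in CD8 cells, and the sources used here do not say whether its probe set lies in the deleted part. The subset labels matched Cd4 and Cd8a. Cd8b1 was high in CD8 cells, at 26222 (labelled wildtype) and 25715 (labelled knockout). It also gave signal in CD4 cells, 312 under the wildtype and 971 under the knockout label, a 3.11-fold difference. Median signals ran from 189 to 235 over the arrays, and 58.4% to 61.6% of probe sets lay above a floor of 93.9, the value below which signals were set to the floor before a fold was taken. A fold with 1 array at the floor is a bound, written as at least, and no fold is given where both are. Of all genes, 8596 lay above the floor on at least 1 array, and so did all 33 named mitosis genes.

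The mitosis genes were brightest in CD4 cells labelled wildtype and dim in both subsets labelled knockout. Their median signal was 953 on the array labelled wildtype CD4, 457 on wildtype CD8, 159 on knockout CD8 and 110 on knockout CD4. On the array labelled wildtype CD4, 32 of the 33 had their highest signal, as did 32.9% of all genes above the floor. The order wildtype CD4, wildtype CD8, knockout CD8, knockout CD4 held for 25 of the 33 genes and for 8.19% of all genes above the floor. In 6 others, the knockout arrays changed places, and the remaining members were Cenpe and Racgap1. All 33 lay above the floor on the array labelled wildtype CD4, 32 on wildtype CD8, and 21 on each of the knockout arrays. There were 9 members below the floor on both knockout arrays: Bub1, Bub1b, Ttk, Cenpe, Kif2c, Kif11, Kif4, Spag5 and Anln.

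**Figure D1:**
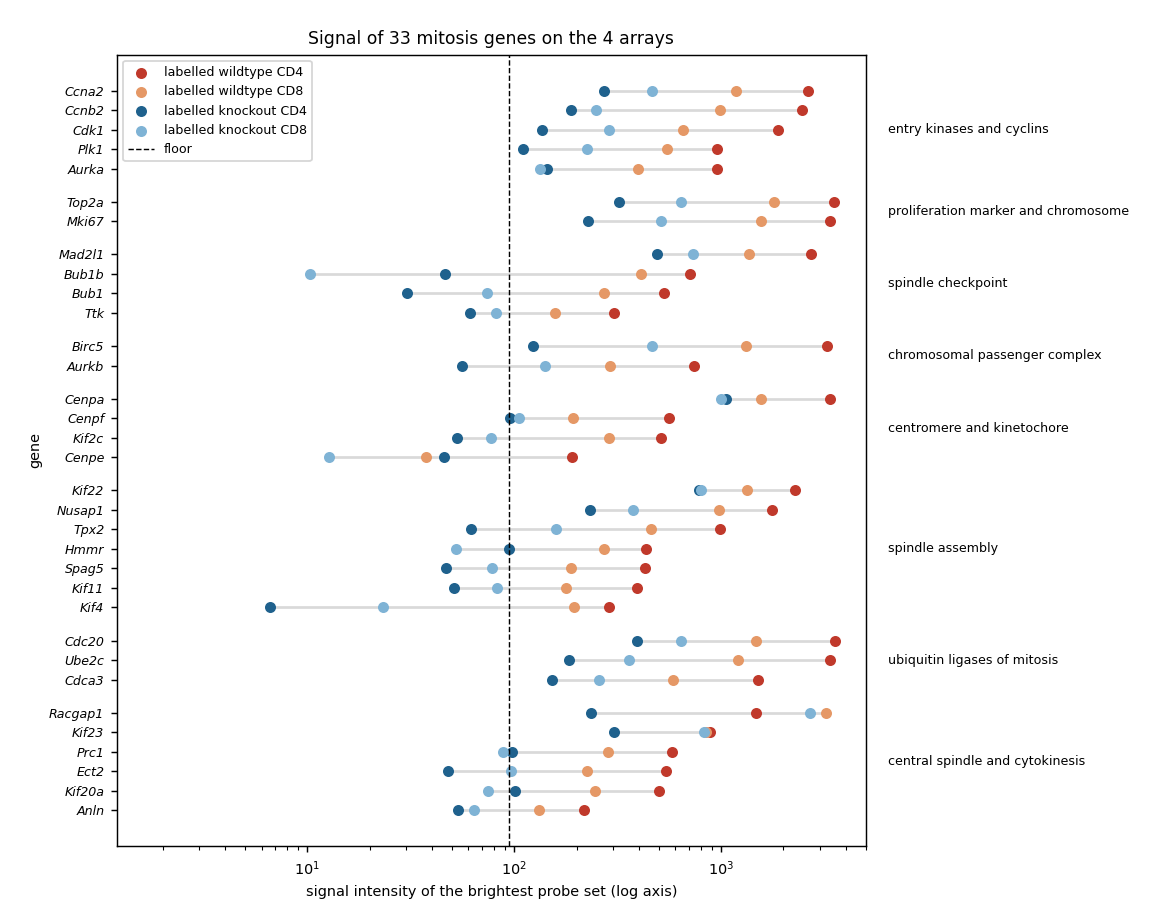
Signal intensity (log axis) of the brightest probe set of each of the 33 mitosis genes on the 4 arrays, 1 point per array, grouped by role; the dashed line is the floor of 93.9. Red points (wildtype CD4) lie farthest right for 32 genes, and Racgap1 is the gene whose CD8 arrays both exceed its CD4 arrays.

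In CD4 cells all 33 members were at least 2-fold lower on the array labelled knockout, where 7.29% of all 8596 genes were as low, and none was at least 2-fold higher (1.95% of all genes). With arrays centred on their medians these shares were 5.5% and 4.9%. The median log2 fold was -2.58, and members ran from -4.71 for Birc5 to -1.02 for Cenpe, with 12 of these folds as bounds. All genes above the floor had a median of 0. Of the members, 11 were at least 8-fold lower, against 0.85% of all genes. In CD8 cells 22 of the 33 were at least 2-fold lower on the array labelled knockout (3.99% of all genes), and none was 2-fold higher (1.14%); centred on medians, these shares were 3.0% and 2.0%. The CD8 median was -1.22, and members ran from -2.12 for Bub1b up to -0.03 for Kif23, while Cenpe was below the floor on both CD8 arrays. These 22 passed 2-fold in both subsets, as did 2.07% of all genes, whereas 0.349% of all genes were 2-fold higher in both. Because a gene can enter the count through the array on which it is bright, the 18 members above the floor on all 4 arrays were also taken alone: 18 of them passed 2-fold in CD4 and 12 in CD8 cells, with 5.09% and 2.34% as the shares among the 6882 genes of that kind. Bulk RNA of sorted cells does not tell fewer dividing cells from less of these RNAs in each cell. The CD8 count was 14 with all probe sets of a gene averaged (3.2% of all genes). A floor at the 60th percentile left 17 members in CD4 (2.9% of all genes) and 8 in CD8 cells (1.2%).

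With signals set to the floor, the difference was larger in CD4 than in CD8 cells for all 33 members, as it was for 49.8% of all genes above the floor. Without the floor Bub1b and Hmmr went the other way. Bub1b kept 6.54% of its wildtype signal in CD4 and 2.53% in CD8 cells, and Hmmr kept 21.85% and 19.12%. For the 9 members below the floor on both knockout arrays, the floored comparison rests on the wildtype arrays alone. The CD8 log2 fold exceeded the CD4 log2 fold by a median of 1.52, from 0.56 for Kif4 to 3.19 for Birc5, and by at least 1 for 23 members (6.11% of all genes). The sizes for members at the floor are set partly by the floor, and the difference between the subsets has no test.

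**Figure D2:**
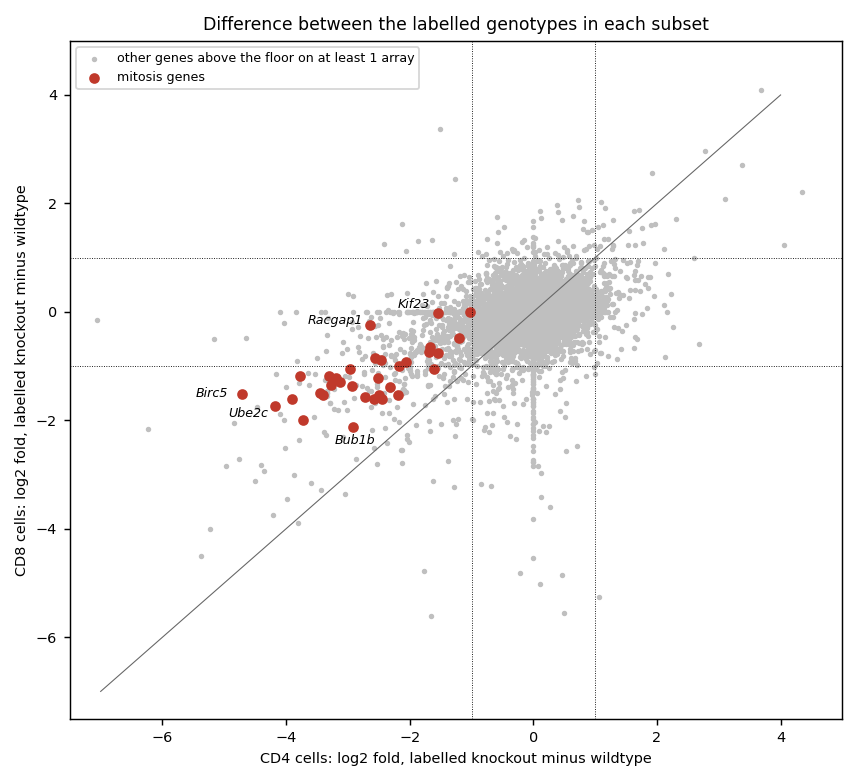
Log2 fold of the array labelled knockout minus that labelled wildtype in CD4 cells (horizontal) and CD8 cells (vertical) for the mitosis genes (red) and the remaining genes that passed the floor (grey); dotted lines mark 2-fold and the diagonal marks equal folds. All 33 mitosis genes lie above the diagonal and left of -1 in CD4 cells, with Racgap1 and Kif23 near 0 in CD8 cells.

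The members share letters in their promoters that the list was not built on. Promoters of genes transcribed late in the cell cycle often hold a cell cycle genes homology region (CHR), which the DREAM complex binds, together with CCAAT boxes, which the factor NF-Y binds. RefSeq promoters on GRCm38.p6, 250 bases before to 50 bases after the start, were found for 31 of the 35 members; those of Aurkb, Ccna2, Kif20a and Tpx2 were not in the table. The CHR core forms searched were TTTGAA and TTTAAA, and the box was CCAAT, each on both strands. TTTGAA was in the promoters of 25 of the 31 members (80.6%) and of 20.2% of 27025 genes with a promoter in the table, and TTTAAA in 8 (25.8%) and 14.9%. CCAAT was in 26 (83.9%) and 41.1%, and at least 2 CCAAT boxes were in 19 (61.3%) and 13.3%. A CCAAT box together with either CHR form was in 25 members (80.6%), in 12.2% of all genes and in 8.9% of the 7015 genes above the floor that have a promoter. Such matches are letters in a window and not shown sites. Of 41 CHR matches, 32 (78.0%) began within 100 bases before the start or after it, a stretch that makes up 50% of the window, as did 43 of 63 CCAAT matches (68.3%).

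**Figure D3:**
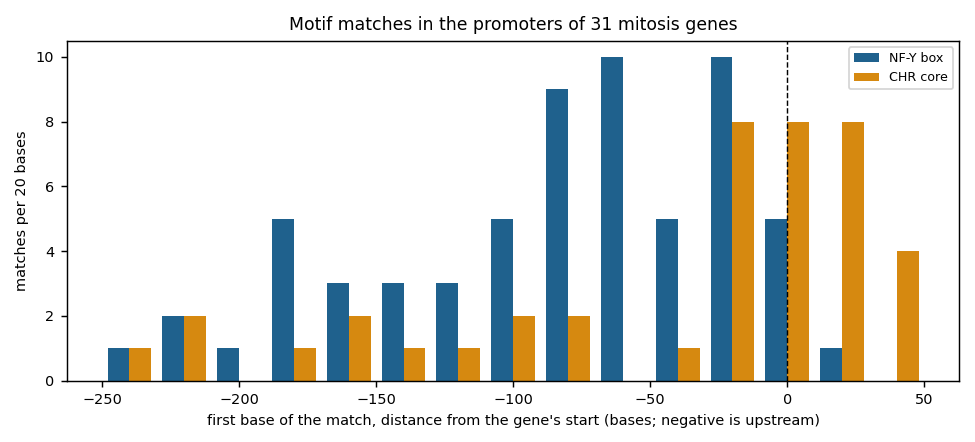
Number of matches per 20 bases against the distance of their first base from the gene's start, in the promoters of 31 mitosis genes (1 promoter per gene), for the NF-Y box (blue) and the CHR core (orange). Most CHR matches lie around the start (dashed line) and most NF-Y boxes in the 100 bases before it.

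The promoters of 5 members are shown, with CCAAT boxes and CHR cores in capitals on either strand: Cdk1 and Ube2c have the usual arrangement and were among the genes most reduced in CD4 cells, Birc5 had the largest floored CD4 fold, and Kif23 and Racgap1 are the pair that kept its signal in CD8 cells. In Ube2c a pair of CCAAT boxes on opposite strands overlaps.
Cdk1 (chr10:69352863-69353162, minus strand): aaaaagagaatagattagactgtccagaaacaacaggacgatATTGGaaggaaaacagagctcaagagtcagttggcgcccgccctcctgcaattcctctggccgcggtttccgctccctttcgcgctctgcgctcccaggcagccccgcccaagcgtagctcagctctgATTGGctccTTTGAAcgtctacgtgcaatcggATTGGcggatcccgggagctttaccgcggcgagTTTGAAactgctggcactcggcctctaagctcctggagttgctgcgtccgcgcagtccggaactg
Ube2c (chr2:164769679-164769978, plus strand): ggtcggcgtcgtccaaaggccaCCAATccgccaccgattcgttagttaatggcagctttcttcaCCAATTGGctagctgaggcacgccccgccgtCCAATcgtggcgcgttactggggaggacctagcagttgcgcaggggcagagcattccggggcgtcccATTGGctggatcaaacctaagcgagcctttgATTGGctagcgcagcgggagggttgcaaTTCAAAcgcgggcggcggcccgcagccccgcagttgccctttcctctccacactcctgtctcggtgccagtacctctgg
Birc5 (chr11:117848987-117849286, plus strand): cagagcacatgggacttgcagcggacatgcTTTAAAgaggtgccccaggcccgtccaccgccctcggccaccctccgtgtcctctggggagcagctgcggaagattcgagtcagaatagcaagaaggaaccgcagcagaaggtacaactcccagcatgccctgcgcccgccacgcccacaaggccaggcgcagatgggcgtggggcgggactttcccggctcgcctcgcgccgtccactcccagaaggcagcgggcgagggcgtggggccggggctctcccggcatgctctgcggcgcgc
Kif23 (chr9:61946750-61947049, minus strand): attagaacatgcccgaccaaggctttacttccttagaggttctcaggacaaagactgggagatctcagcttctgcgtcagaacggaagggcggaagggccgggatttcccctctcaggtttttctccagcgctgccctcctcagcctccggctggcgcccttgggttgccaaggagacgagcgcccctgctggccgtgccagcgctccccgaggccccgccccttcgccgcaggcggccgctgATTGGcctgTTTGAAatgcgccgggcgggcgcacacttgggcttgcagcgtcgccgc
Racgap1 (chr15:99651607-99651906, minus strand): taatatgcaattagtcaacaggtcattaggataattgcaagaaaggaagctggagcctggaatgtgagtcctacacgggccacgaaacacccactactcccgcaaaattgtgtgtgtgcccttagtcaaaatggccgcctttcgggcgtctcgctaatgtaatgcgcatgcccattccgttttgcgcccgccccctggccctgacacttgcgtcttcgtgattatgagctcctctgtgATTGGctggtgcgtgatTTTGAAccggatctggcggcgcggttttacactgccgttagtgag
Cdk1 has CHR cores 71 and 15 bases before the start, with CCAAT boxes 208, 80 and 48 bases before it. Ube2c has a CHR core 29 bases before the start and CCAAT boxes from 228 to 57 bases before it. Birc5 has no CCAAT in this window and a single TTTAAA at 220 bases before the start. Kif23 and Racgap1 each have 1 CCAAT box, 7 and 12 bases before the start, followed by 1 TTTGAA, 2 and 5 bases after it.

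The kinases and cyclins that start mitosis were lower in both subsets. Cdk1, the kinase that drives entry into mitosis, had a signal of 1873 on the array labelled wildtype CD4, 651 on wildtype CD8, 136 on knockout CD4 and 287 on knockout CD8. In knockout-labelled cells it was thus lower by 13.7-fold (CD4) and 2.27-fold (CD8). Ccnb2, a B-type cyclin partner of Cdk1, had signals of 2466 and 988 in wildtype-labelled CD4 and CD8 cells and 188 and 249 in the knockout-labelled ones, 13.1-fold and 3.97-fold lower. Ccna2, the cyclin of S and G2 phase, read 2627 and 1176 against 273 and 461. All of them remained above the floor on every array. Plk1, a kinase of centrosome maturation and spindle assembly, read 953 and 548 against 110 and 224, and Aurka, a centrosome kinase, 953 and 395 against 144 and 133. Over these 5 genes the log2 fold ran from -3.78 to -2.72 in CD4 and from -1.99 to -1.18 in CD8 cells. Each of the 5 was higher on both wildtype-labelled arrays than on either knockout-labelled one, as were 31 of the 33 members and 23.2% of all genes above the floor.

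Mki67 and Top2a, the usual markers of dividing cells, were above the floor on every array and lower under the knockout label. Mki67, which coats mitotic chromosomes, read 3361 on the array labelled wildtype CD4, 1555 on wildtype CD8, 226 on knockout CD4 and 510 on knockout CD8, lower under the knockout label by 14.9-fold (CD4) and 3.05-fold (CD8). Top2a, the topoisomerase that untangles sister chromatids, read 3500, 1807, 320 and 639 in the same order, 11.0-fold and 2.83-fold lower. In both genes the CD4 array was above the CD8 array in wildtype-labelled cells and below it in knockout-labelled cells.

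The spindle checkpoint, which delays chromosome separation until every kinetochore is attached, was represented by 4 genes. Bub1b, which encodes the inhibitor BubR1, read 708 on the array labelled wildtype CD4 and 407 on wildtype CD8, and 46.3 and 10.3, below the floor, in the knockout-labelled CD4 and CD8 cells. The differences were at least 7.54-fold (CD4) and at least 4.34-fold (CD8), the latter the largest CD8 fold of the members with signals set to the floor. Its kinase relative Bub1 read 529 and 272 against 30.4 and 73.6. Ttk, the kinase that starts checkpoint signalling, read 304 and 157 against 60.9 and 81.3. Mad2l1, whose product holds back the ubiquitin ligase of mitosis, stayed above the floor on every array: it read 2713 and 1361 against 490 and 735, lower by 5.54-fold (CD4) and 1.85-fold (CD8).

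The chromosomal passenger complex corrects faulty attachments and later directs division. Birc5, its survivin subunit, read 3230 on the array labelled wildtype CD4, 1325 on wildtype CD8, 123 on knockout CD4 and 461 on knockout CD8. Its CD4 fold, 26.2-fold lower beside 2.88-fold in CD8 cells, was the largest with signals set to the floor, where 12 members have only a bound; without the floor Kif4 kept 2.31% of its wildtype CD4 signal and Birc5 3.81%. Aurkb, the kinase of the complex, read 738 and 291 against 55.9 and 140, at least 7.86-fold and 2.08-fold lower. Its second probe set read 484 and 157 against 35.4 and 125, a log2 fold of -2.37 or lower in CD4 and of -0.33 in CD8 cells, so the size in CD8 cells differed between its probe sets.

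Centromere and kinetochore genes were less uniform. Cenpa, the histone H3 variant that marks centromeres, was above the floor on every array: it read 3349 and 1558 on the wildtype CD4 and CD8 arrays and 1054 and 1000 on the knockout ones, 3.18-fold and 1.56-fold lower. Cenpf, an outer kinetochore protein gene, read 559 and 192 against 95.1 and 106. Kif2c, a kinesin that removes wrong attachments, read 514 and 286 against 52.8 and 77.3. Cenpe, a kinesin that moves chromosomes to the spindle's middle, was above the floor only on the array labelled wildtype CD4, at 190, so its single fold is a bound of at least 2.03. Of the 4 genes, only Kif2c was at least 2-fold lower in CD8 cells.

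All 7 spindle assembly genes were lower under the knockout label, 4 of them by at least 2-fold in CD8 cells. Tpx2, which activates Aurora A on the spindle, read 990 and 457 on the wildtype CD4 and CD8 arrays and 61.4 and 159 on the knockout ones, at least 10.5-fold and 2.88-fold lower. Nusap1, a microtubule bundling protein gene, read 1759 and 973 against 231 and 376, 7.61-fold and 2.59-fold lower. Kif11, the motor that pushes spindle poles apart, read 391 and 178 against 51.3 and 82.0, and Kif4, a chromosome-bound kinesin, 286 and 194 against 6.6 and 23.2. The hyaluronan-mediated motility receptor gene Hmmr read 432 and 273 against 94.3 and 52.1, and Spag5, the astrin gene, 426 and 187 against 46.5 and 78.4. Kif22, a kinesin that binds chromosome arms, read 2286 and 1339 against 778 and 797, folds of 2.94 and 1.68. The other probe sets of Kif22 gave larger CD4 differences: 1 of them read 1033 and 447 against 36.8 and 250, a log2 fold of -3.46 or lower in CD4 and of -0.84 in CD8 cells.

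Genes of ubiquitin ligases that act in mitosis moved alike. Ube2c, the conjugating enzyme that works with the anaphase-promoting complex (APC/C), read 3339 on the array labelled wildtype CD4, 1200 on wildtype CD8, 185 on knockout CD4 and 359 on knockout CD8, lower under the knockout label by 18.1-fold (CD4) and 3.34-fold (CD8). Cdc20, the activator of the APC/C in mitosis, read 3551, 1480, 390 and 637 in that order, 9.11-fold and 2.32-fold lower. Its other probe set above the floor read 1440, 1034, 347 and 532, with log2 folds of -2.05 and -0.96, which is under 2-fold in CD8 cells. Cdca3, a cell division cycle gene, read 1500, 584, 151 and 256, 9.91-fold and 2.28-fold lower. For all 3 genes the arrays had the same order.

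The genes of the central spindle and cytokinesis held the pair that departed from the rest. Racgap1 and Kif23 encode the subunits of centralspindlin, a complex that bundles the microtubules between separating chromosomes and recruits the exchange factor Ect2. Racgap1 read 1474 on the array labelled wildtype CD4 and 235 on knockout CD4, 6.27-fold lower, but 3216 on wildtype CD8 and 2698 on knockout CD8, a log2 fold of -0.25. It was the only member brighter in CD8 than in CD4 cells on the arrays labelled wildtype (2.18-fold), and it was 11.5-fold brighter on those labelled knockout; 0.663% of all genes were at least 2-fold brighter in CD8 cells under both labels. Its other probe set read 987 and 246 in CD4 cells and 2606 and 2405 in CD8 cells, with the same order of arrays. Kif23 read 883 on wildtype CD4 and 303 on knockout CD4, 2.92-fold lower, and 842 and 826 on the CD8 arrays, a log2 fold of -0.03. Its other probe set above the floor read 179 and 99.9 in CD4 cells and 232 and 420 in CD8 cells, a CD8 log2 fold of 0.86, the only probe set of a member above the floor that was higher under the knockout than the wildtype label. Genes at least 2-fold lower in CD4 and less than 1.5-fold apart in CD8 cells made up 3.69% of all genes and 4 of the members; in the other 2, Anln and Cenpe, the knockout CD8 signal was below the floor.

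The other cytokinesis genes, like Kif23 by a narrow margin in CD8 cells, had both knockout-labelled arrays below both wildtype-labelled ones, as did 23.2% of all genes. Ect2 read 538 and 224 on the wildtype CD4 and CD8 arrays and 48.0 and 96.3 on the knockout ones, at least 5.73-fold and 2.33-fold lower. Prc1, a microtubule cross-linker of the central spindle, read 581 and 285 against 97.5 and 87.7, and Kif20a, a kinesin of the same structure, 501 and 244 against 101 and 74.5. Anln, which encodes the scaffold anillin, read 218 and 132 against 53.2 and 64.1. On the array labelled knockout CD8 these 4 genes lay between 64.1 and 96.3.

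**Figure D4:**
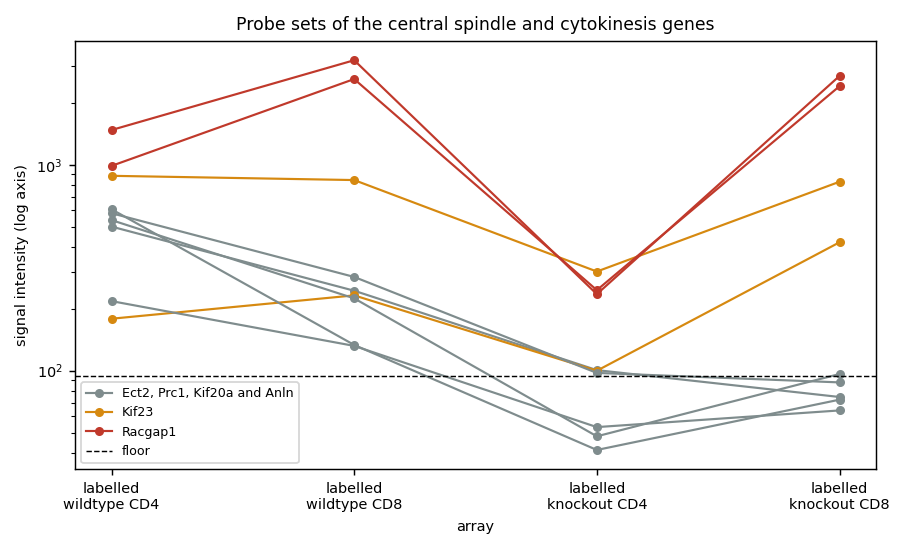
Signal intensity (log axis) on the 4 arrays of each probe set of the 6 central spindle and cytokinesis genes that is above the floor on at least 1 array; lines join the values of 1 probe set and carry no order. Both Racgap1 probe sets (red) and both Kif23 probe sets (orange) are high on the knockout CD8 array, where the other 4 genes (grey) lie near or below the floor of 93.9.

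Between the subsets the order turned with the genotype label. On the arrays labelled wildtype, 19 of the 33 members were at least 2-fold lower in CD8 than in CD4 cells (4.99% of all genes), 1 member, Racgap1, was at least 2-fold higher (3.11%), and the median log2 fold was -1.03. On the arrays labelled knockout, 6 were at least 2-fold higher in CD8 cells (1.94%), none was lower (1.27%), and the median was 0.15 with 9 members below the floor on both arrays. Among the 18 above the floor on both knockout arrays, the median was 0.76. The 6 were Racgap1, Birc5 (3.74-fold), Kif23 (2.73-fold), Mki67 (2.26-fold), Cdk1 (2.11-fold) and Plk1 (2.04-fold). Birc5, Mki67 and Cdk1 were at least 2-fold lower in CD8 cells under the wildtype label and at least 2-fold higher under the knockout label, as were 0.209% of all genes. With the floor at the 60th percentile, the knockout-label difference of all 3 was lost (log2 folds of 0.03, 0.18 and 0), and 1 of the 6 was left (0.6% of all genes).

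Further probe sets of the members gave the same direction in CD4 cells and often no 2-fold difference in CD8 cells. There were 60 probe sets for the 33 genes, and 16 genes had a single one. Of the 27 further probe sets, 9 were at or below the floor on all arrays. All of the other 18, from 12 genes, were lower on the array labelled knockout in CD4 cells, with log2 folds from -3.58 to -0.84, and 15 of them by at least 2-fold. In CD8 cells 15 were lower, 5 of them by at least 2-fold, 2 were at or below the floor on both arrays, and 1, of Kif23, was higher. Of 7 members that were at least 2-fold lower in CD8 cells and had another probe set above the floor, Ccna2 and Kif2c passed 2-fold in all of them, and Aurkb, Tpx2, Hmmr, Cdc20 and Prc1 did not. Kif11 was the opposite case. Its brightest probe set gave a CD8 log2 fold of -0.93 or lower and was not counted, while its others gave -1.04 and -1.03.

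Genes of mitosis outside the list shared the direction in part. Of 62 further mitosis genes, 44 were named and above the floor. The count lower by 2-fold or more was 27 in CD4 and 18 in CD8 cells labelled knockout (7.29% and 3.99% of all genes). None was 2-fold higher in either, and at the shares of all genes (1.95% and 1.14%) few of 44 would be. The median log2 folds of these 44 genes were -1.58 and -0.52. Shcbp1 and Cep55, which act at the end of cell division, read 923 and 947 on the array labelled wildtype CD4 and 80.4 and 78.1 on knockout CD4, and in CD8 cells they were 3.20-fold and 2.93-fold lower. The kinases Pbk and Melk were 11.5-fold and at least 9.38-fold lower in CD4 cells. Condensin divided: Ncapg2 (lower by 7.70-fold in CD4, 2.10-fold in CD8 cells), Ncaph (6.66-fold and 2.16-fold), Ncapg (at least 5.29-fold and at least 2.31-fold) and Ncapd2 (4.00-fold and 2.03-fold) were low under the knockout label, whereas of its ATPase subunits Smc2 was 2.13-fold (CD4) and 1.29-fold (CD8) lower and Smc4 read between 10186 and 11442 on all 4 arrays. The 14 condensin and cohesin genes above the floor had medians of -0.08 (CD4) and -0.14 (CD8), with 5 and 4 at least 2-fold lower (7.29% and 3.99% of all genes).

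The core of the APC/C did not follow its mitotic partners Cdc20 and Ube2c. The medians of 13 subunit and cofactor genes were 0.06 (CD4) and -0.03 (CD8), and none was 2-fold apart in either subset. Of all genes, 7.29% were 2-fold lower and 1.95% higher in CD4 cells, and 3.99% and 1.14% in CD8 cells. At those shares few of 13 genes would pass, so the count alone says little. The largest difference was that of Fzr1, the activator of late mitosis and G1, at log2 folds of -0.64 and -0.27. A CCAAT box together with a CHR form was in 12 of 35 promoters of further mitosis genes (34.3%), while 0 of 12 for the APC/C and 5 of 36 for DNA replication (13.9%) were near the 8.9% of all genes above the floor. So was 1 of 14 (7.1%) for the memory and effector T cell genes described below, whose median log2 folds were -3.98 (CD4) and -2.78 (CD8). The part of these motifs in the folds was not tested. DNA replication genes, 42 of which were above the floor, had medians of -0.90 and -0.35, with 19 at least 2-fold lower in CD4 and 6 in CD8 cells, and Rrm2, a subunit of ribonucleotide reductase, was 22.1-fold and 3.36-fold lower. The mitosis genes had medians of -2.58 and -1.22, and the difference between the lists has no test.

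**Figure D5:**
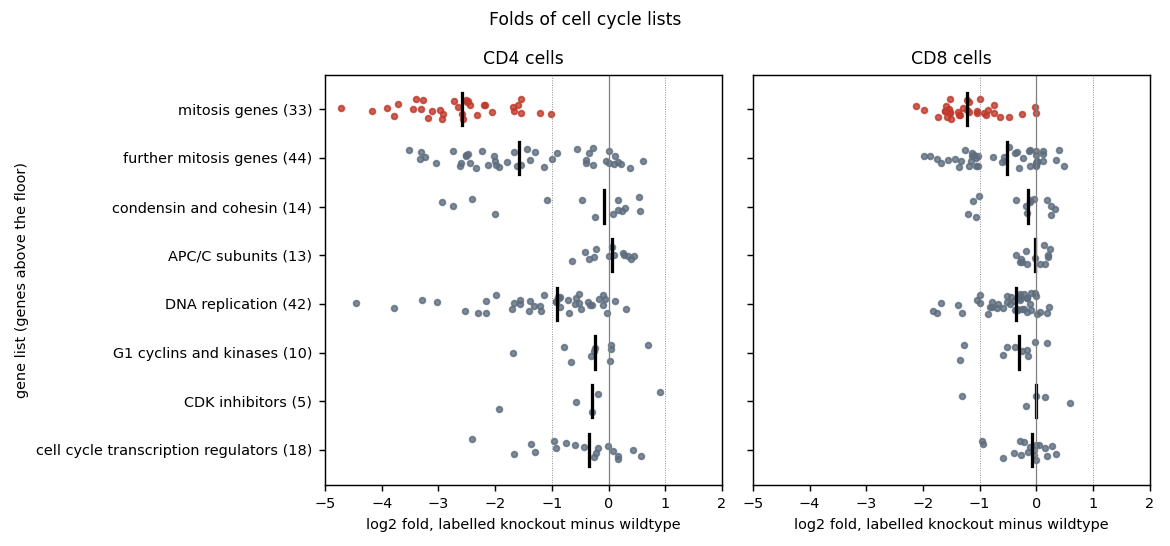
Log2 fold of the array labelled knockout minus that labelled wildtype for the mitosis genes (red) and 7 further cell cycle lists (grey), in CD4 cells (left) and CD8 cells (right); each point is a gene above the floor on at least 1 array, black bars are medians and dotted lines mark 2-fold. The mitosis genes have the lowest median in both subsets (-2.58 and -1.22), and the APC/C subunits lie around 0.

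Genes that control the mitosis genes differed less. Above the floor were 18 cell cycle transcription regulators. Of these, 4 were lower by 2-fold or more in CD4 cells labelled knockout (7.29% of all genes) and none in CD8 cells (3.99%). The 4 were E2f8, an E2F repressor (at least 5.29-fold), Foxm1, an activator of mitosis genes (296 against 49.4, at least 3.16-fold), Rbl2, a pocket protein of the DREAM complex (4329 against 1671, 2.59-fold), and E2f1 (at least 2.45-fold). In CD8 cells Foxm1 read 195 against 100 and Rbl2 2128 against 1974. Among G1 cyclins and kinases, Ccne2, a cyclin of S phase entry, was lower by at least 3.19-fold (CD4) and at least 2.53-fold (CD8), and the median of the 10 genes above the floor was -0.24 and -0.31. Of 5 inhibitors of cyclin-dependent kinases, Cdkn2c was lower by 3.84-fold (CD4) and 1.14-fold (CD8), Cdkn1a was at least 2.48-fold lower in CD8 cells, and Cdkn2d was higher, with log2 folds of 0.90 and 0.59.

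Memory and effector T cell genes were lower under the knockout label, as the mitosis genes were, and naive T cell genes mostly went the other way. All 17 named memory and effector genes were above the floor on both wildtype-labelled arrays. Their summed signal was 92832 in CD4 and 89336 in CD8 cells there against 6094 and 18536 on the knockout-labelled arrays. Of the 17, 16 were at least 2-fold lower in CD4 (7.29% of all genes) and 15 in CD8 cells (3.99%), with medians of -3.98 and -2.78. The summed signal of 9 naive T cell genes was 43622 and 67510 under the wildtype label and 108469 and 92188 under the knockout label. Of these 9, 5 were at least 2-fold higher in CD4 cells labelled knockout (1.95% of all genes), with a median of 1.34. In CD8 cells 1 of them, Igfbp4, was (1.14% of all genes), and the median was 0.33. There Igfbp4 went from 1826 to 14230, and Klf2 read 13923 against 12817. On the arrays labelled knockout CD8 cells exceeded CD4 cells in the summed memory signal and in the median mitosis signal. On those labelled wildtype the summed memory signal was close in CD4 and CD8 cells (92832 and 89336), while the median mitosis signal was 953 and 457. The part of cell state in the difference was not tested, and it cannot be told apart from the genotype label.

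Markers of other blood cells were low or absent for some types and above the floor in part for others. Of 6 named erythroid genes, 2 were above the floor on any array, Epor and Gata1, and their list summed to between 182 and 376 on the 4 arrays. Of 6 named B cell genes, 3 were above the floor on any array, and their list summed to 1582 and 1745 on the wildtype CD4 and CD8 arrays and 319 and 929 on the knockout ones. Those above it were Cd22, Cd79b and Blk, while Cd79a, Ms4a1 and Pax5 lay below it on all arrays. All 4 plasma cell genes were above the floor on both wildtype-labelled arrays and 2 and 1 of them on the knockout CD4 and CD8 arrays, with sums of 7600, 4417, 6385 and 4951 on wildtype CD4, wildtype CD8, knockout CD4 and knockout CD8. Jchain, which encodes the joining chain of secreted antibodies, read 444 and 206 against 85.3 and 66.4, whereas Xbp1, a transcription factor of secretory cells, read 6273 and 3967 against 6153 and 4807. Xbp1 made up most of each sum, and Prdm1, also counted among the memory and effector genes, read 773 and 145 against 143 and 51.7. Of 5 named natural killer genes, 4 were above the floor, with sums of 2269 and 2866 against 350 and 175. The 4 named dendritic cell genes were all above the floor on the array labelled wildtype CD8, where they summed to 1851, against 92.7 to 308 elsewhere. Myeloid genes (5 of 6 above the floor on any array) summed to 428 to 812, and granulocyte genes (1 of 6) to 180 to 269. The part of these cells in the result was not tested.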

How the data were processed

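The authors deposited 1 linear signal intensity for each of 22690 probe sets, of which 64 controls were left out. GCOS 1.4 and MAS5 are named in the submitters' processing notes. The authors' intensity values were taken to be scaled to a common trimmed mean of 1000, and no trimmed mean per array is reported here. Scanner files and detection calls were not used here. A single symbol was listed for 20380 probe sets, 691 had several and 1555 none; 20351 matched RefSeq (GRCm38.p6), used for current names and promoters only. Where a gene had several probe sets, that of highest average log2 signal, computed here, stood for it. Signals were set to a floor, the 40th percentile of non-control values (93.9), and log2 folds were taken between single arrays. With 1 array per group no p-value is given; a difference is counted at 2-fold, beside the share of all 8596 genes above the floor on an array. Intensities carry no count of reads, so the number of arrays limits precision. The members, lists and the rule for named genes (all members; of each further list up to 4 genes with the largest mean difference, and those 2-fold apart against it) were chosen with earlier results of these data known; Smc2, Smc4 and Klf2 were named after their values were seen. Floors at the 25th and 60th percentile, a pseudocount of 16, quantile normalization, median centring, averaged probe sets and no multi-transcript probe sets were tried. The steps were tested on simulated data. The tools were pandas 2.3.3 and numpy 2.4.6 under Python 3.11.15, with matplotlib 3.10.9.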

Additional observations from a re-analysis of the deposited data

Results flagged for a closer look

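Cdk1, Mki67 and Birc5 differed between CD8 and CD4 cells in opposite directions under the 2 genotype labels, by at least 2-fold each way. The log2 fold of CD8 minus CD4 was -1.53 for Cdk1 on the arrays labelled wildtype and 1.08 on those labelled knockout, a difference of 2.60. For Mki67 it was -1.11 and 1.17, a difference of 2.29, and for Birc5 -1.29 and 1.90, a difference of 3.19. With the floor at the 60th percentile the knockout-label folds were 0 for Cdk1, 0.18 for Mki67 and 0.03 for Birc5, so the opposite direction was no longer seen. Each fold comes from 1 pair of arrays, and the difference was not tested.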

How the results depend on the processing

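Quantile normalization and median centring moved no count of members by over 1.5 times, although median centring raised the median of 6882 genes never at the floor by 0.33 in CD4 and 0.21 in CD8 cells; the members' medians were then -2.33 and -1.01. After quantile normalization 6.1% of all genes were 2-fold lower and 3.1% higher in CD4 cells labelled knockout, and 3.3% and 1.7% in CD8 cells. The floor mattered most. At the 60th percentile (449.9) 17 members were at least 2-fold lower in CD4 cells labelled knockout (2.9% of all genes). In CD8 cells 8 were (1.2% of all genes) and in both 8, with medians of -1.08 (CD4) and -0.02 (CD8). Between subsets, 11 were 2-fold lower in CD8 than in CD4 cells labelled wildtype (1.8% of all genes). Under the knockout label 1 was 2-fold higher in CD8 than in CD4 cells (0.6%). That floor lies above the signal of most members on the knockout-labelled arrays, so its folds are mainly bounds. At the 25th percentile (35.6) 10 were 2-fold higher in CD8 than in CD4 cells labelled knockout (4.5% of all genes). With averaged probe sets 14 were lower in CD8 cells (3.2% of all genes) and 14 in both. Without multi-transcript probe sets 25 members were left, of which 13 were lower in CD8 cells (3.8% of all genes) and 13 in both. Under the wildtype label 12 were lower in CD8 than in CD4 cells (4.6%). Taking the probe set with the highest mean linear signal, chosen after seeing the data, moved 2 of 132 single folds by over 1.5 times. No called fold of a member changed sign under any of these settings. No paired analysis was possible because each group has 1 array. With 1 array per group, no replicate could be left out.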
